A study of Homo sapiens with 2 samples.

Results

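USP18 and HERC5 encode opposing enzymes of the ISG15 pathway, and their messenger RNA was followed in HT1080 cells, an established human fibrosarcoma line, with and without a short hairpin RNA (shRNA) against cMyc. Both genes were chosen by symbol, through the probe sets whose single platform gene symbol is USP18 or HERC5, because they stood among the genes highest with cMyc shRNA in these same data. Each had 1 probe set, so the pair makes up 2 of 14884 named genes on the array. Expression was measured on Affymetrix Human Gene 2.0 ST arrays, which read a gene through many short probes summarised to 1 log2 value. There were 2 arrays: 1 of cells given a non-targeting control shRNA and 1 of cells given cMyc shRNA, both collected at 48 hours. The treatment protocol speaks of infection with virus carrying the shRNA and the design text of transfection, so how the shRNA was delivered is not settled by the labels. The labels give no hairpin sequence and no untreated cells, so the knockdown and the hairpin, its delivery or the culture that came with it cannot be told apart. In bulk RNA, fewer cells that express a gene and less RNA per cell cannot be told apart. With 1 array per condition there is no spread between replicates, no test was run, and every difference describes these 2 arrays.

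ISG15 is a ubiquitin-like protein that interferon induces and that is joined to other proteins by a cascade like that of ubiquitin. UBA7 activates it, UBE2L6 carries it, and HERC5, which binds ribosomes, attaches it to newly made proteins. USP18 takes ISG15 off again, and it has a separate role as a brake, binding the type I interferon receptor through STAT2 and dampening further signalling. Both members are classical interferon-stimulated genes, switched on through the interferon-stimulated response element (ISRE), which IRF9 binds.

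USP18, the protease, had a log2 level of 4.86 with control shRNA and 9.25 with cMyc shRNA (probe set 16926942). Its log2 difference of 4.39, always given here as cMyc shRNA minus control shRNA, is 21.0-fold. HERC5, the ligase, read 3.68 and 7.37 (probe set 16968765), which is 13.0-fold, or 3.70 on the log2 scale. Both thus read well above their control values with cMyc shRNA. Of 10258 measured genes, those whose mean of both arrays reached the median of all probe sets (3.70), 206 (2.01%) were at least 2-fold higher with cMyc shRNA and 23 (0.224%) at least 8-fold higher. USP18 was 7th and HERC5 11th from the highest difference, a rank that the choice of these genes already used.

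The level of HERC5 set a limit that USP18 did not have. The control value of HERC5 lay 0.03 under the level filter, so the gene passed it through the cMyc shRNA array, and with no detection call its true control level may be lower or absent. USP18 stood 1.16 above that filter on the control array. No measurement was repeated, and the only yardstick is technical. Log2 differences had an SD of 0.34 between probe sets of 1 gene, from 416 genes that had several above the filter. It compares different probe sets on the same 2 arrays, so it holds no spread between hybridizations or cultures. The 0.69 by which the difference of USP18 exceeded that of HERC5 compares with 0.48 for a gap of 2 such values. The order of the pair thus rests on less than 2 technical SDs and is not settled.

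Around the pair, 4 of the other 6 measured genes of the conjugation pathway were also at least 2-fold higher with cMyc shRNA, by amounts that varied with the step. ISG15, the modifier itself, went from 6.57 with control shRNA to 9.91 with cMyc shRNA, 10.2-fold higher. UBA7, the activating enzyme and first step of the cascade, read 5.44 and 7.17, 3.33-fold higher. UBE2L6, the conjugating enzyme, read 5.60 and 6.65, 2.08-fold higher and just past the 2-fold rule. HERC6, the closest relative of HERC5 and the main ISG15 ligase in mice, which lack HERC5, read 6.44 and 9.60, 8.89-fold higher. The log2 differences were thus 3.35 for the modifier, 1.74 and 1.06 for the enzymes upstream of the ligase, 3.70 for HERC5 and 4.39 for the protease.

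The other measured ligases on this list, TRIM25 and ARIH2, lay lower. TRIM25, an interferon-inducible ubiquitin ligase of RNA sensing, read 9.29 and 10.24, a log2 difference of 0.95 that stayed just under 2-fold. ARIH2 had 3 probe sets, with log2 differences of 0.07 on the brightest and -0.05 and -0.24 on the others. In all, 8 of the 13 pathway genes listed had a named probe set and 8 were measured. The 2-fold rule picked 6 as higher and 0 as lower, and the median log2 difference was 2.44. These 6 include USP18 and HERC5, which were chosen for their high values, and HERC5 counted as measured through the cMyc shRNA array. Without USP18 and HERC5, 4 of 6 were at least 2-fold higher and the median was 1.40. Over all measured genes 2.01% passed that rule and the median was -0.01. The pathway list was drawn up with these results known, so its counts and medians are a description and not independent evidence. ARIH1, STAT2, USP41 and the receptor subunits ITGAL and ITGB2 were not analysed here, since no named probe set stood for them. USP41 is a close copy of USP18 that RefSeq lists as a pseudogene, USP41P, and signal from it in the USP18 probe set cannot be separated.

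**Figure D1:**
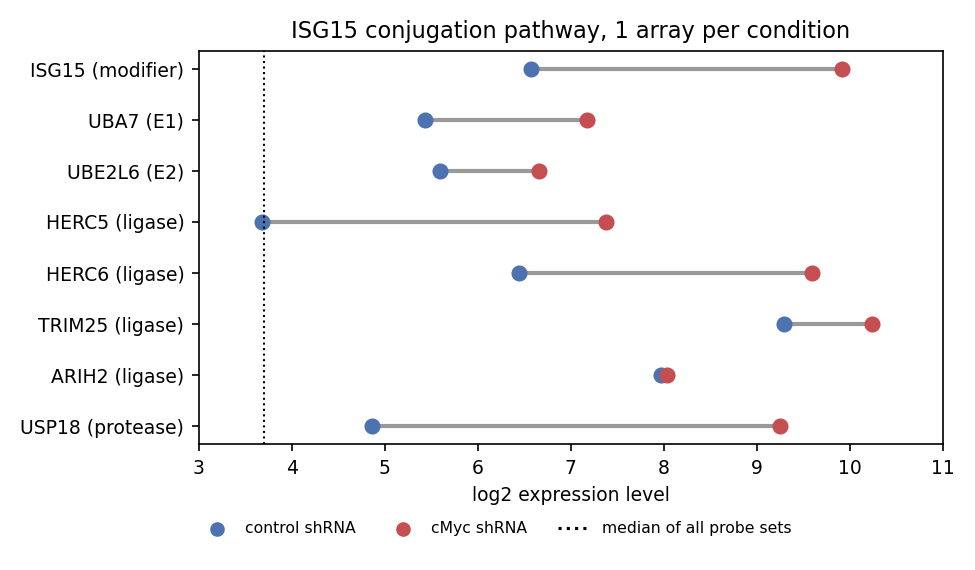
Log2 expression level (x axis) of the 8 measured ISG15 pathway genes (y axis, with their role) on the control shRNA array (blue) and the cMyc shRNA array (red), 1 array each, with the median of all probe sets dotted. HERC5 starts at that median (3.68) and reaches 7.37, USP18 goes from 4.86 to 9.25, and the points of ARIH2 nearly coincide.

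Promoter windows were also read, and of the pair only HERC5 had one. RefSeq windows (GRCh38.p14, 250 bases before to 50 after the gene start) were searched for the ISRE core (GAAA, any 2 bases, GAAA), the gamma-activated site TTCNNNGAA and the E-box CACGTG bound by MYC and related factors. Both strands were searched, and the other motifs read the same on each. The bases before the start are printed for HERC5 and for ISG15, the modifier it attaches, with every match in capitals. HERC5 is shown from chr4:88456869-88457118 and ISG15 from chr1:1013247-1013496, both on the plus strand.
HERC5: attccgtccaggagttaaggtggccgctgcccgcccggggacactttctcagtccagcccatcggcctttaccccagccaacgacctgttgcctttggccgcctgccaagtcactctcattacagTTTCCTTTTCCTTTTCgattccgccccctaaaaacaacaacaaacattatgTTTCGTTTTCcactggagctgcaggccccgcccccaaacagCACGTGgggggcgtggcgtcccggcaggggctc
ISG15: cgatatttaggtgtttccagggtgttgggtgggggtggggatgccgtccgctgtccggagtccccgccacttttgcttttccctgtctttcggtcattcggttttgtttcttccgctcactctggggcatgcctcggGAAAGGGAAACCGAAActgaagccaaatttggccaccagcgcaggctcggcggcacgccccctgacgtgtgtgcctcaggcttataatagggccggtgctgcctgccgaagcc
HERC5 held 3 ISRE core matches, all on the minus strand. The first begins 125 and the second 119 bases before the start, so they overlap in the run of capitals TTTCCTTTTCCTTTTC, and the third begins 74 bases before it. Its window also held an E-box, beginning 33 bases before the start. ISG15 held 2 overlapping ISRE core matches on the plus strand, which begin 113 and 107 bases before its start, and no E-box. Of 35116 windows, 3.57% held the ISRE core, 7.66% the gamma-activated site, 7.26% the E-box, and 74 (0.211%) both ISRE core and E-box. The joint share was not part of the set search rule, and what the combination means for HERC5 was not tested. No ISRE core was found in the windows of HERC6, UBE2L6, TRIM25 or ARIH2, which says only that these letters are not there, and TRIM25 held an E-box. USP18 and UBA7 had no entry. The 23 genes at least 8-fold higher, the pair among them, were taken after the values were seen and by the same differences. Some of them, such as IFIT1, IFIH1 and HERC5, counted as measured through the cMyc shRNA array. Of the 23 genes, 19 had a window and 13 of these (68.4%) held an ISRE core, against 4.38% of all 27305 symbols with a window. The E-box was found for 2 of the 19 (10.5%), against 8.77% of all symbols, and the gamma-activated site for 4 (21.1%), against 9.38%. A match is a run of letters and not a bound site.

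Within the HERC family, HERC5 and HERC6 were the genes past 2-fold. The family shares RCC1-like repeats and a HECT ligase domain, and comprises the giant HERC1 and HERC2 and the small HERC3 to HERC6. HERC3 read 7.06 on the control and 7.04 on the cMyc shRNA array, a log2 difference of -0.02 whose sign flipped under quantile normalization (0.05) and under loess (0.0040). HERC4 had a log2 difference of 0.54 and HERC2 one of 0.21. The 2 probe sets of HERC1 gave 0.20 (the brighter) and 0.82. Without HERC5, which was chosen for its value, 1 of 5 was at least 2-fold higher, beside 2.01% of all measured genes. So few genes give no share to read. Among the HECT ligases outside this family, 15 of 22 were measured, 0 passed 2-fold in either direction, and the median difference was 0.17. Of all measured genes 6.01% passed 2-fold in either direction, so a count of 0 among so few lies near the background. SMURF1, which acts on SMAD signalling, was highest at 0.72 and HECTD4 next at 0.67. G2E3 was lowest at -0.59, followed by UBE3A, the ligase affected in Angelman syndrome, at -0.33.

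None of the other measured ubiquitin-specific proteases was at least 2-fold higher. Of 54 listed, 46 were named and 40 measured, with a median log2 difference of 0.03. The background was 2.01% of all measured genes higher and 6.01% in either direction, and these proteases, with 0 of 40 higher and 2 of 40 lower, lie near it. USP13 read 7.64 and 6.26, 2.61-fold lower, and USP1, which acts on PCNA and FANCD2 in DNA repair, read 8.21 and 7.10, 2.15-fold lower. The highest were USP33 (0.82) and USP49 (0.71, with a control value of 3.38, under the median of all probe sets). USP13 is also one of several ubiquitin proteases described to react with ISG15 in vitro. The others had log2 differences of 0.58 for USP5, 0.05 for USP14, -0.20 for USP2 and -0.20 for USP21. None of these 5 was at least 2-fold higher.

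Other ubiquitin-like modifiers and their enzymes were read as well, for 24 of 39 listed genes, while 15 had no named probe set. Of the 24 genes of the ubiquitin, SUMO, NEDD8, UFM1, URM1 and ATG12 systems, 0 passed 2-fold in either direction, near the background of 6.01%, and the median log2 difference was -0.07. ATG7, the activating enzyme of autophagy, was highest at 0.48 and the SUMO protease SENP6 next at 0.45. FAU, which encodes a ubiquitin-like protein fused to a ribosomal protein, was lowest at -0.57, and SAE1, a subunit of the SUMO activating enzyme, had -0.54. UBA1 and UBA6, the activating enzymes of ubiquitin, differed by 0.06 and 0.02.

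**Figure D2:**
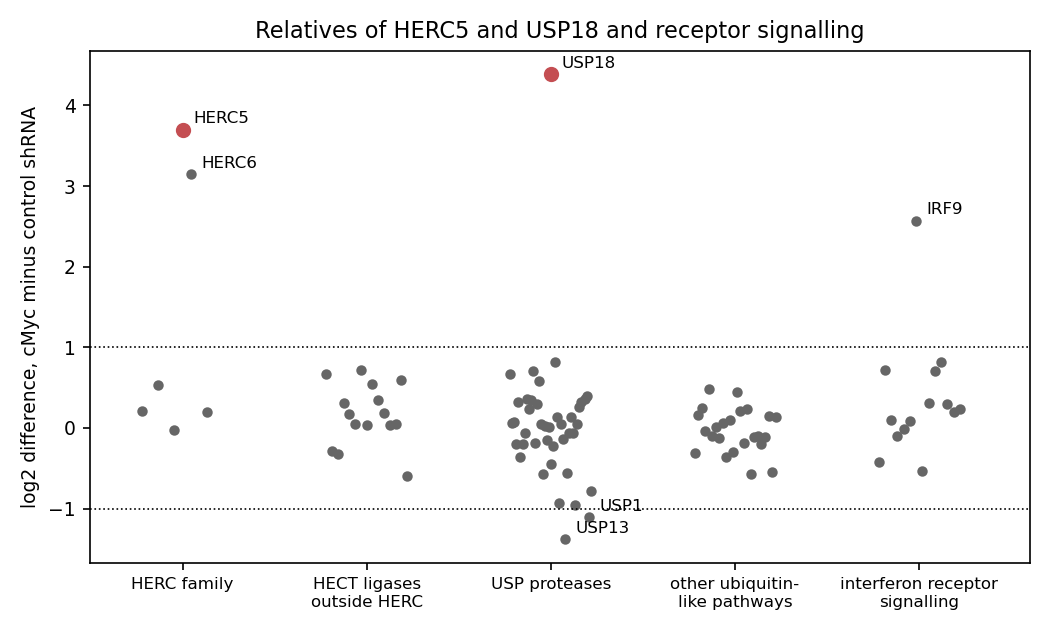
Log2 difference, cMyc minus control shRNA (y axis), of each measured gene (points, spread sideways for legibility) in 5 groups, with USP18 and HERC5 in red, genes past 2-fold named and 2-fold dotted. USP18 (4.39), HERC5 (3.70), HERC6 (3.15) and IRF9 (2.57) lie above the upper line, and USP1 (-1.11) and USP13 (-1.38) below the lower one.

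USP18 acts on interferon receptor signalling, and of that pathway IRF9 was the member past 2-fold. IRF9, which binds DNA at that element, had 5.44 with control shRNA and 8.01 with cMyc shRNA, 5.94-fold higher. Of 28 listed genes 14 were measured, 1 passed 2-fold upwards and 0 downwards, and the median was 0.21, beside a background of 2.01% higher and 6.01% in either direction. The kinase JAK2 had a log2 difference of 0.82, JAK1 of 0.30 and TYK2, with JAK1 the kinase of the type I receptor, of -0.09. Of 11 other inhibitors listed, 8 had no named probe set, and the 3 measured ones lay within 2-fold. SOCS1 read 4.11 and 4.19, a log2 difference of 0.09, SOCS2 had -0.54, and the SOCS3 probe sets gave -0.42 (the brighter) and 0.15. IRF7, which amplifies interferon production and is itself interferon-induced, read 3.91 and 3.89. IFNAR1, IFNAR2, STAT2 and all 22 listed interferon genes, IFNB1 among them, were not analysed here, so the ligand and the receptor that USP18 binds have no value.

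Among proteins described as carriers of ISG15, the genes past 2-fold all stood in the interferon-stimulated or the conjugation list used here. The 2-fold rule picked 6 of 18 measured substrate genes as higher and 0 as lower, beside 2.01% higher over all measured genes. IFIT1 and IFIH1 counted as measured through the cMyc shRNA array alone, so these counts are a description; over all 19 named substrates the rule also picked 6 and 0. These were IFIT1 (2.78 and 9.68 on the control and cMyc shRNA arrays), IFIH1 (3.45 and 8.52), IFIT3 (4.67 and 9.12), RIGI (7.69 and 10.70), EIF2AK2 (8.21 and 10.33) and UBE2L6. The interferon-stimulated and conjugation lists that hold these 6 were drawn up with these results known, so a split by them is not independent evidence. IFIT1 and IFIT3 belong to a family that binds foreign RNA, IFIH1 and RIGI sense double-stranded RNA, and EIF2AK2 is the kinase PKR. Of the 10 measured substrates outside those lists 0 passed the 2-fold rule upwards, which lies near that background of 2.01%, and their median was 0.20. CHMP5 and TSG101, of the membrane-budding machinery that ISG15 is described to restrain, had log2 differences of 0.72 and 0.65. UBE2E1 had -0.26 and STING1, the adaptor of DNA sensing, -0.18. CGAS, at 3.18 and 2.70, was under the level filter.

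The wider interferon-stimulated set was also higher with cMyc shRNA. Of 60 listed genes outside the conjugation pathway 39 were measured, 32 passed 2-fold upwards and 0 downwards, and the median was 2.57. Of all measured genes 2.01% passed 2-fold upwards, and the median was -0.01. Among the 39 listed genes, 6 (IFIT1, IFIT2, IFIH1, IFI44L, BST2 and MX2) had a control value under the level filter. They counted as measured through the cMyc shRNA array. Over all 41 named genes of the list, with no filter, 33 were at least 2-fold higher and 0 lower, with a median of 2.51. This list was drawn up with these results known and is not independent evidence of direction. Likeness to the pair was taken as the absolute gap between log2 differences over the 2 arrays. Nearest to USP18 were IFI44 (gap 0.02), IFIT3 (0.06), SAMD9 (0.22), EGR1 (0.46) and DDX60 (0.52). IFI44 read 4.76 and 9.18 on the control and cMyc shRNA arrays, and IFIT3 read 4.67 and 9.12. EGR1, an immediate early transcription factor, is the one of these 5 outside the interferon-stimulated list. Nearest to HERC5 were XAF1 (0.05), MX2 (0.10), DDX60 (0.17), SAMD9L (0.19) and TLR3 (0.19). MX2, a dynamin-like GTPase that blocks virus entry into the nucleus, read 3.57 and 7.17, with a control value below the median of all probe sets, as for HERC5. TLR3, the endosomal sensor of double-stranded RNA, is outside the interferon-stimulated list used here. All of these gaps except that of DDX60 from USP18 are smaller than 0.48, the technical SD of such a gap.

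**Figure D3:**
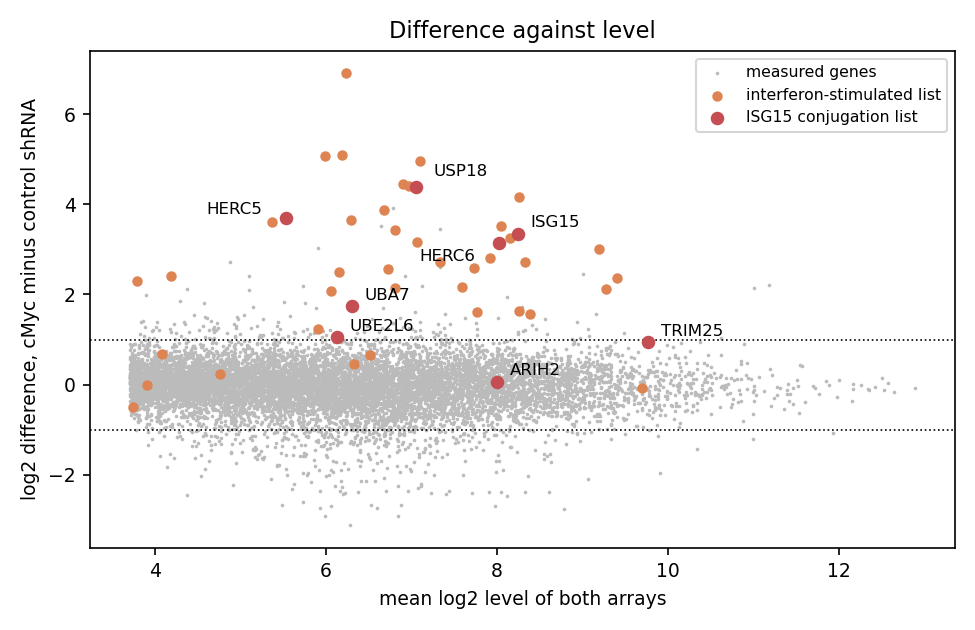
Log2 difference (y axis, cMyc minus control shRNA) against mean log2 level of both arrays (x axis) for the 10258 measured genes (grey), with the interferon-stimulated list in orange, the ISG15 conjugation list in red and named, and 2-fold dotted. USP18 and HERC5 lie far above the grey band among the orange points, and ARIH2 lies inside it.

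Genes beside the pair on the chromosomes were also read. HERC6 and HERC5 are adjacent protein-coding genes on chromosome 4 in the RefSeq order, and HERC3 is the third gene beyond HERC5. Of the 5 neighbours on each side of HERC5, 3 had a named probe set: HERC6 with a log2 difference of 3.15, HERC3 with -0.02 and NAP1L5 with 0.18. Thus HERC5 and HERC6 were both high while the next measured genes past HERC5 were near 0. On chromosome 22, 6 of the 10 neighbours of USP18 were named, and their log2 differences ran from -0.61 for PEX26, a peroxisome import factor, to 0.71 for RIMBP3. BID, a pro-apoptotic BCL2 family member, had -0.32 and BCL2L13 0.40. None of the 5 measured ones reached 2-fold, which lies near the 6.01% of all measured genes past 2-fold in either direction. The other, DGCR6 (3.13 and 3.07), was under the level filter.

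**Figure D4:**
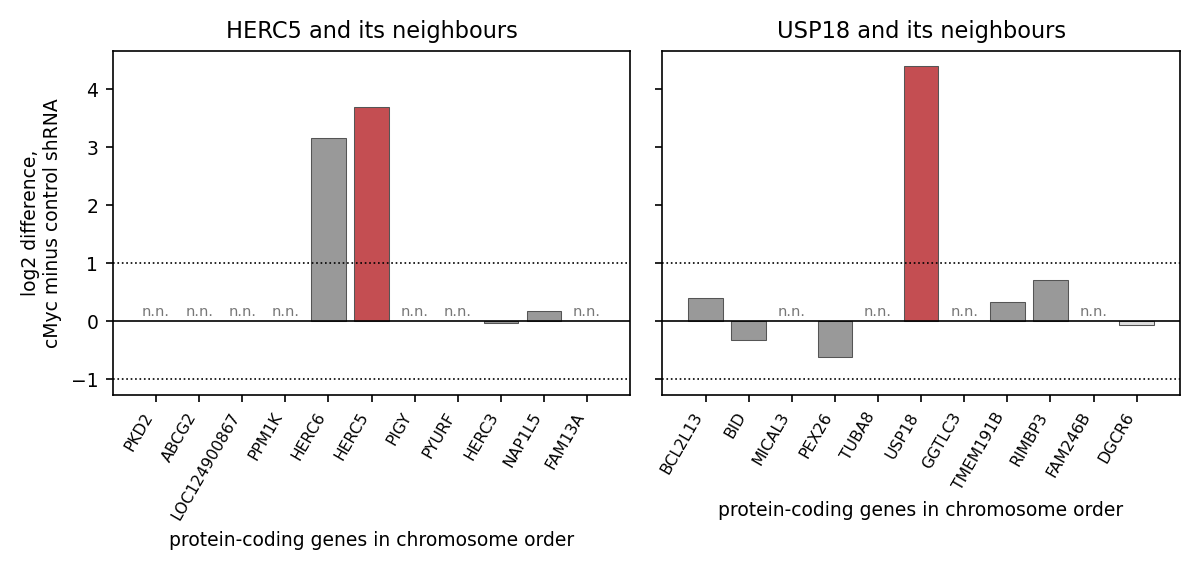
Log2 difference (y axis, cMyc minus control shRNA) of HERC5, USP18 and the 5 protein-coding genes on each side in chromosome order (x axis, not to scale); red marks the member, pale bars genes under the level filter and n.n. genes with no named probe set here. HERC6 (3.15) stands beside HERC5 (3.70), and the named neighbours of USP18 stay between -0.61 and 0.71.

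MYC, the target of the shRNA, had 7.09 with control and 6.16 with cMyc shRNA, a log2 difference of -0.93 or 1.91-fold lower, in the direction of its label. The array medians were 3.68 and 3.73, and the sorted values of both arrays differed by at most 0.12. Housekeeping genes were less even: the 6 measured had a median log2 difference of -0.59 and 5 lay below 0, with HPRT1 at -1.04, TBP at -1.01, PPIA at -0.76 and B2M, itself interferon-inducible, at 1.01. Differences near 1 in size, such as those of MYC, UBE2L6 and TRIM25, are thus of like size to those of some housekeeping genes. The mesenchymal markers VIM (9.94 and 9.34 on its brightest probe set), FN1 (12.43 and 12.58), MMP14 (10.16 and 10.50) and CD44 (9.25 and 9.17) were at 9 or above on both arrays. The other VIM probe sets fell under 9 with cMyc shRNA: they read 9.41 and 8.39, and 9.48 and 8.54. THY1 (4.50 and 4.86) and TWIST1 (4.31 and 4.28) were dim, S100A4 was under the level filter, and 7 of the 14 listed were not analysed here. Of the epithelial markers, KRT18 read 9.09 and 8.41 on its brighter probe set, and 6.12 and 6.23 on the other. KRT8 (5.30 and 4.62), KRT19 (4.31 and 3.85) and CLDN7 (4.62 and 5.15) were dimmer, and EPCAM and CLDN4 were under the filter. White blood cells also express USP18 and HERC5 readily. Of 13 leukocyte markers 6 were named and 3 of these (CD14, CD2 and LYZ) were under the level filter on the mean of both arrays. NKG7 (4.90 and 5.25) and SPI1 (4.64 and 4.56) were dim but above that filter on both arrays. The summed level of the 6 was 10.5 on the control and 11.4 on the cMyc shRNA array on the log2 scale, most of it from CD68 (10.43 and 11.34), a lysosomal protein that many cell types hold. The defining marker PTPRC was not analysed here, and the part of other cells in the results was not tested.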

How the data were processed

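Log2 expression levels of 53617 probe sets on 2 arrays were taken as the authors deposited them. The log base is inferred from the range, 1.41 to 13.9, and is not stated. The values were made with Affymetrix Expression Console, per the submitters' processing notes; how it corrected background, normalized and summarized, and in which version, is not given in the sources used here. Such processing may compress differences of dim probe sets, which was not tested, and the number of arrays limits the precision.

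GEO's platform annotation gave 1 symbol for each of 16098 probe sets. The probe set with the highest mean stood for a gene, and a gene counted as measured at or above the median of all probe sets. A fixed size of 2-fold was used in place of a test. The members, the 14 gene lists and the rules were chosen with earlier results of these data known. The rule for names allowed both members, MYC, the conjugation and HERC genes, up to 2 highest and 2 lowest measured genes of each other list with any past 2-fold, and the 5 genes nearest in difference to each member; other genes were named for their role after their values were seen. Promoter windows and gene order came from RefSeq tables of GRCh38.p14. Calculations used statsmodels 0.14.6, pandas 2.3.3 and numpy 2.4.6 under Python 3.11.15, and were tested on simulated data. Other scalings, level filters, probe set rules and sizes were tried as alternatives.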

Additional observations from a re-analysis of the deposited data

How the results depend on the processing

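Median centring, quantile normalization, loess, the mean over probe sets and raising low values to the median left USP18 between 4.34 and 4.42 and HERC5 between 3.65 and 3.70. In these 5 alternatives all 70 values of 14 other named genes moved by less than 0.34. The conjugation list had between 5 and 7 genes at least 2-fold higher under all 9 alternatives. TRIM25 made the seventh after quantile normalization, and HERC5, with a mean level of 5.53, fell under the level filter at the 75th percentile (5.58). That filter, which keeps fewer genes, left 126 genes at least 2-fold higher. The rule of size moved counts by construction. At 1.5-fold, 900 genes were higher and 1224 lower, with 4 of the interferon receptor signalling list, 3 of the USP proteases and 3 of the HECT ligases higher. At 3-fold, 61 genes were higher and 113 lower. Under the other alternatives the USP and HECT lists kept a count of 0 and receptor signalling a count of 1. No paired analysis was possible because each condition has 1 array. Signal over background is unknown without detection calls, which limits the folds of genes with dim control values, HERC5 among them.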
